A study of Mus musculus with 6 samples.

Results

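Tuft cells are rare chemosensory cells of the intestinal epithelium. The genes described here are 33 transcripts of tuft cell identity and signalling, among the 54446 genes counted in the series. They comprise transcription factors, taste transduction components, the interleukin-25 axis, metabolite receptors, surface and cytoskeletal proteins, and signalling adaptors. The list was drawn up by gene name, with counts of the same 6 libraries and of the same knockout against control contrast already known. The levels below are therefore a description, and the contrast is no independent evidence about the list. All 33 names were found in the deposited count table, each with reads in at least 1 library. Of these, 32 passed the filter on low counts, and Il25 did not.

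The samples were intestinal epithelial cells of mice aged 3 to 4 months, with 1 library per mouse. The knockout group (Prkci flox/flox Villin-CRE, n = 3) carried floxed alleles of Prkci, which encodes atypical protein kinase C iota/lambda of the apical polarity complex, and a Cre recombinase driven by the villin promoter, active in intestinal epithelium. The control group (Prkci flox/flox, n = 3) carried the same floxed alleles without Cre. Sample titles name jejunum and the series text jejunum and ileum, and cells without Cre activity, such as leukocytes, keep Prkci. The labels call the cells enterocytes, and tuft cells were not sorted. In such bulk samples, fewer tuft cells and less RNA per tuft cell cannot be told apart.

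As background, tuft cells depend on the POU homeodomain factor Pou2f3. They read luminal signals through G protein-coupled receptors and the taste cascade of gustducin, phospholipase C beta 2 and the cation channel Trpm5. Intestinal tuft cells release interleukin-25, which acts on group 2 innate lymphoid cells. Interleukin-13 from those cells acts back on the epithelium and expands the tuft and goblet lineages.

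Total counts ran between 18972906 and 26687856 in the knockout libraries and between 22453798 and 23008047 in the control libraries. Prkci stood at 21.5, 14.6 and 21.4 CPM (counts per 1e+06 of the library total, scaled by the trimmed-mean method) in knockout replicates 1, 2 and 3, against 44.6, 46.9 and 44.0 CPM in control replicates 1, 2 and 3. Each knockout library was thus below each control library, with knockout replicates 1 and 3 at about the same level. Counts span the whole gene, deleted part or not. Xist, the RNA made by the inactive X, was high in knockout replicates 2 and 3 and in control replicate 3, which goes against the sexes in the series text for 3 libraries (knockout replicate 3 and control replicates 2 and 3). The 12 markers of enterocytes, the labelled cell type, summed to 46200, 66900 and 57300 CPM in knockout replicates 1, 2 and 3, against 54200, 45700 and 47000 CPM in the controls.

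The defining tuft cell markers Dclk1, Pou2f3 and Trpm5 were detected in all 6 libraries. Knockout replicate 1 carried tuft cell transcripts at control levels, while knockout replicates 2 and 3 held few of them. The mean log2 CPM over the 33 genes, taken relative to the mean of the controls, was 0.03 in knockout replicate 1, −3.37 in knockout replicate 2 and −2.69 in knockout replicate 3, against 0.07, −0.17 and 0.10 in the 3 controls. Summed over the list, the genes had 895, 235 and 242 CPM in knockout replicates 1, 2 and 3, against 995, 846 and 1040 CPM in control replicates 1, 2 and 3. The knockout group was therefore split, and its mean stands for none of its 3 animals.

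**Figure D1:**
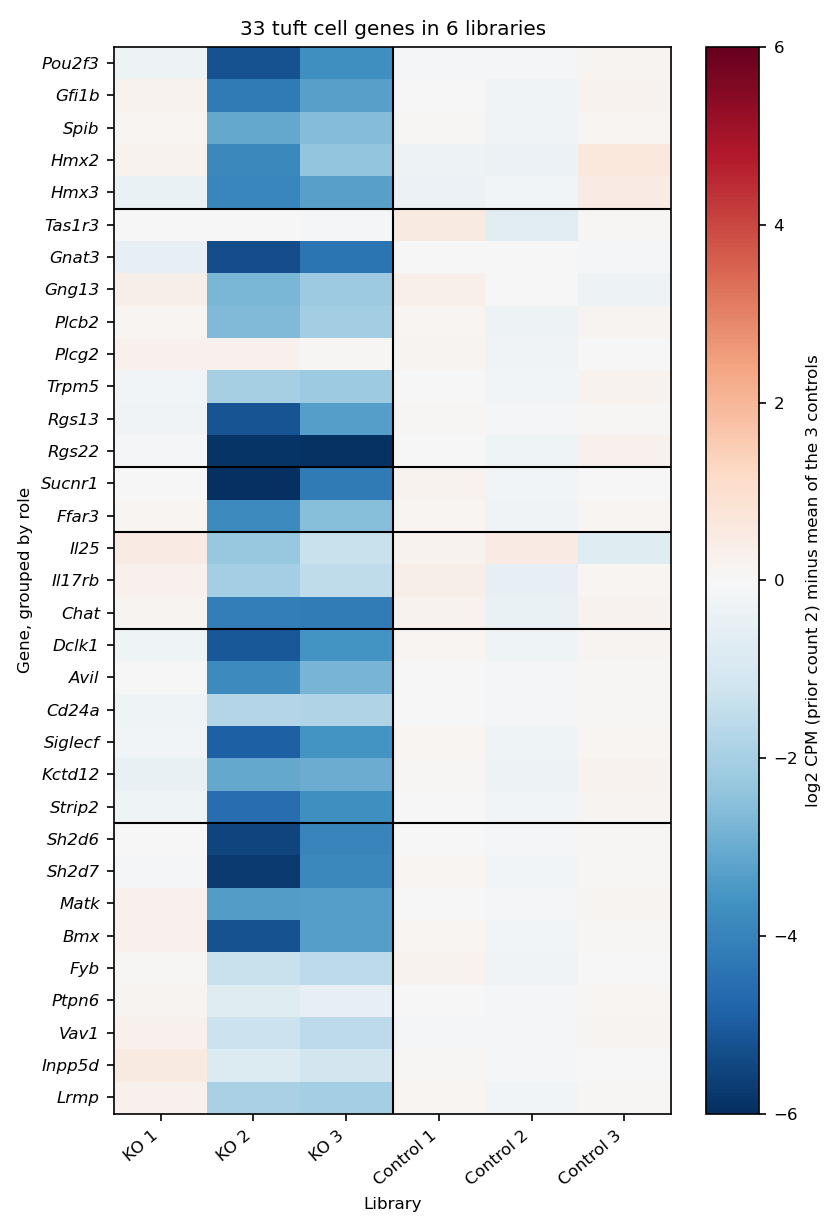
Level of each of the 33 tuft cell genes (rows, grouped by role) in each library (columns, knockout left, control right), as log2 CPM with a prior count of 2 minus the mean of the 3 controls. Columns 2 and 3 of the knockouts are blue for nearly every gene, knockout replicate 1 has the pale shade of the controls, and Tas1r3 and Plcg2 are pale in all 6 libraries.

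Among the transcription factors, Pou2f3 (chromosome 9, 43123939 to 43210369 on mm10), the master regulator of the tuft lineage, had 6.47, 0.131 and 0.560 CPM in knockout replicates 1, 2 and 3. In control replicates 1, 2 and 3 it had 7.82, 7.41 and 9.20 CPM. In counts, that was 3 reads in knockout replicate 2, or 1.6% of the pooled controls (95% counting interval 0.329 to 4.71%), and 14 reads in knockout replicate 3, or 6.87% (3.73 to 11.6%). Knockout replicate 1 held 79.3% (65.0 to 96.3%). All 3 knockout libraries were thus below all 3 controls for Pou2f3, by very different amounts. These intervals cover counting error only and leave out the variation between mice. PCR copies of a molecule cannot be recognised here, so the counting error itself may be larger.

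Gfi1b, a zinc finger repressor also used in blood cell development, had 35, 0 and 2 counts in knockout replicates 1, 2 and 3, against 34, 32 and 43 counts in the controls. Knockout replicate 2 was at least 11.8-fold lower than the pooled controls at a floor of 3 counts per library. Spib, an Ets factor that M cells and B cells also express, had 24.6, 2.65 and 3.72 CPM in the knockouts, against 24.1, 19.9 and 25.4 CPM in the controls. Both genes put knockout replicate 1 within the control range and knockout replicates 2 and 3 below it. The homeobox genes Hmx3 and Hmx2 are neighbours on chromosome 7, with 3847 bases between them. Hmx3 had 28, 1 and 3 counts in the knockouts, against 34, 41 and 64 in the controls. Hmx2 had 42, 1 and 7 counts in the knockouts, against 33, 34 and 68 in the controls. Knockout replicates 2 and 3 were below every control for both neighbours, and for Hmx3 knockout replicate 1, at 1.41 CPM, was too.

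In the taste cascade, members differed more from each other. Gnat3, the gustducin alpha subunit, had 47, 0 and 2 counts in knockout replicates 1, 2 and 3, against 78, 84 and 78 counts in the controls. At the same floor knockout replicate 2 was at least 26-fold lower than the pooled controls, and knockout replicate 1 was also below each control, at 69.9% of them. Gng13, the gamma subunit that pairs with gustducin, was near its detection limit, with 13, 0 and 1 counts in the knockouts, against 14, 12 and 9 in the controls. Plcb2, the phospholipase of the cascade, had 12.3, 1.74 and 2.64 CPM in the knockouts, against 12.5, 9.07 and 12.9 CPM in the controls. These 3 genes were lower in knockout replicates 2 and 3 than in any control.

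Trpm5 (chromosome 7, 143069153 to 143094642 on mm10), the channel that depolarises the cell downstream of Plcb2, kept a larger share. It had 51.7, 14.5 and 12.7 CPM in knockout replicates 1, 2 and 3, against 55.7, 50.9 and 66.3 CPM in the controls. The remaining level was 25.2% (22.5 to 28.2%) of the pooled controls in knockout replicate 2 and 22% (19.5 to 24.7%) in knockout replicate 3. These intervals lie above those of Pou2f3 and Dclk1 in the same libraries. Of the Trpm5 exon bases, 3.44% overlap Tssc4 on the opposite strand, and the part of such reads in the Trpm5 count was not tested. Tssc4 had 138, 191 and 253 counts in the knockouts, against 124, 156 and 157 in the controls.

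Rgs13, a regulator of G protein signalling, had 19.3, 0.522 and 2.16 CPM in knockout replicates 1, 2 and 3, against 22.9, 20.2 and 23.0 CPM in the controls. Rgs22, of the same family, had 143, 1 and 1 counts in the knockouts, against 171, 156 and 221 counts in the controls. That left Rgs22 at 0.561% (0.0142 to 3.14%) of the pooled controls in knockout replicate 2 and at 0.516% (0.0130 to 2.89%) in knockout replicate 3, the lowest estimates over the 33 genes with a read in both libraries. Tas1r3 and Plcg2 did not share this pattern. Tas1r3, the common subunit of the sweet and umami taste receptors, had 3.38, 3.31 and 3.12 CPM in the knockouts, against 5.05, 2.21 and 3.55 CPM in the controls. All 3 knockouts were inside its control range. Of the Tas1r3 exon bases, 1.02% overlap Dvl1 on the opposite strand, and the part of such reads in the Tas1r3 count was not tested. Dvl1 had 1289, 1203 and 1419 counts in the knockouts, against 1421, 1389 and 1366 in the controls. Plcg2, the phospholipase C gamma 2 used downstream of tyrosine kinases, had 65.2, 64.7 and 55.9 CPM in the knockouts, against 60.4, 47.4 and 55.4 CPM in the controls, so that the groups overlapped.

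**Figure D2:**
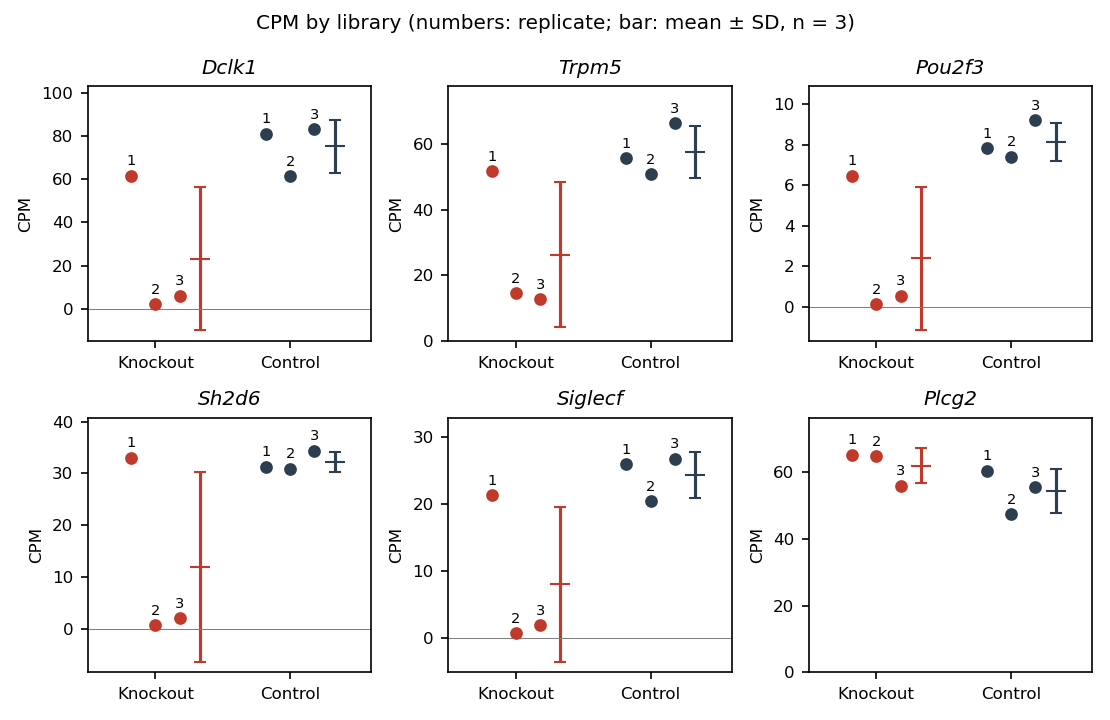
CPM of 6 tuft cell genes by library, with knockout left and control right in each panel, the replicate number above each point, and a bar for the mean ± SD of 3 libraries. For Dclk1, Trpm5, Pou2f3, Sh2d6 and Siglecf, knockout replicates 2 and 3 lie near the bottom and knockout replicate 1 at or just below the controls, whereas for Plcg2 all 6 points lie between 47.4 and 65.2 CPM.

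The metabolite receptors shared the split. Sucnr1, the receptor through which tuft cells sense microbial succinate, had 106, 0 and 5 counts in knockout replicates 1, 2 and 3, against 141, 113 and 125 counts in the controls. At the floor of 3 counts knockout replicate 2 was at least 41.1-fold lower than the pooled controls, and knockout replicate 3 was 26.8-fold lower. Ffar3, a receptor for short-chain fatty acids, had 89, 5 and 16 counts in the knockouts, against 104, 85 and 107 counts in the controls. For both receptors knockout replicate 1 lay inside the range of the controls once scaled by depth.

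Of the interleukin-25 axis and neurotransmitter genes, Il25 itself was at the limit of detection. It had 10, 0 and 2 counts in knockout replicates 1, 2 and 3, against 9, 12 and 4 counts in the controls. At the floor of 3 counts, knockout replicate 2 was at least 2.71-fold lower than the pooled controls, and knockout replicate 3 was at 22.6% of them (2.6 to 90.7%). Il25 did not pass the filter and was not tested between the groups. Il17rb, which encodes the interleukin-25 receptor subunit and is also expressed by innate lymphoid cells, had 8.84, 1.74 and 2.52 CPM in the knockouts, against 9.63, 5.33 and 8.11 CPM in the controls. Chat, the enzyme that makes acetylcholine, had 66, 2 and 2 counts in the knockouts, against 78, 55 and 82 counts in the controls. For Il17rb and Chat, knockout replicates 2 and 3 were below every control while knockout replicate 1 was among them.

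Of the surface and cytoskeletal genes, Dclk1 (chromosome 3, 55242364 to 55539068 on mm10), the kinase most used to stain tuft cells, had 61.6, 2.13 and 6.20 CPM in knockout replicates 1, 2 and 3. In control replicates 1, 2 and 3 it had 81.0, 61.3 and 83.2 CPM. The level was 2.84% (2.10 to 3.76%) of the pooled controls in knockout replicate 2 and 8.26% (6.99 to 9.69%) in knockout replicate 3. Knockout replicate 1, at 82.0% (77.0 to 87.3%), was just above the lowest control. Avil, the actin bundler advillin of the apical tuft, had 37.6, 2.61 and 5.52 CPM in the knockouts, against 38.5, 35.4 and 40.4 CPM in the controls. Siglecf, a sialic acid-binding lectin of tuft cells and eosinophils, had 21.3, 0.740 and 1.92 CPM in the knockouts, against 25.9, 20.4 and 26.7 CPM in the controls.

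Strip2, a subunit of a phosphatase-kinase complex, had 28.9, 1.39 and 2.68 CPM in knockout replicates 1, 2 and 3, against 34.3, 31.2 and 39.6 CPM in the controls. Cd24a, a surface glycoprotein that other crypt cells and leukocytes also carry, had 168, 59.6 and 58.7 CPM in the knockouts, against 207, 192 and 215 CPM in the controls. Kctd12, an auxiliary subunit of GABA-B receptors, had 101, 16.3 and 17.0 CPM in the knockouts, against 145, 112 and 157 CPM in the controls. In these 3 genes knockout replicate 1 was also below every control, at 82.6% (75.3 to 90.5%) of the pooled controls for Strip2, 82.0% (79.0 to 85.2%) for Cd24a and 73.5% (70.0 to 77.1%) for Kctd12. The lincRNA gene Gm26778 overlaps 62.8% of the Kctd12 exon bases on the opposite strand and had at most 4 counts in a library, so the split of reads between the genes is uncertain.

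The adaptor genes Sh2d6 and Sh2d7 encode SH2-domain proteins. Sh2d6 had 33, 0.609 and 2.00 CPM in knockout replicates 1, 2 and 3, against 31.3, 30.9 and 34.4 CPM in the controls. Sh2d7 had 31.2, 0.522 and 2.16 CPM in the knockouts, against 35.6, 28.5 and 33.4 CPM in the controls. Knockout replicate 2 was 52.9-fold lower than the pooled controls for Sh2d6 and 62.2-fold lower for Sh2d7, and knockout replicate 3 was 16.1-fold and 15.0-fold lower, while knockout replicate 1 lay among the controls for both genes. Bmx, a Tec family kinase, had 13.6, 0.218 and 1.08 CPM in the knockouts, against 12.2, 10.2 and 12.0 CPM in the controls. Matk, a kinase that restrains Src kinases, had 19, 1.48 and 1.56 CPM in the knockouts, against 15.8, 14.7 and 17.8 CPM in the controls. In knockout replicate 1, Bmx and Matk were above every control.

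Of the adaptor, kinase and phosphatase genes labelled here as also expressed by leukocytes, Bmx was among the lowest. The other 5 kept more of their level than Sh2d6, Sh2d7 and Matk, whose own expression in leukocytes was not checked. Lrmp, a protein of the endoplasmic reticulum, had 37.4, 7.96 and 7.56 CPM in knockout replicates 1, 2 and 3, against 33.6, 27.6 and 32.4 CPM in the controls. The adaptor gene Fyb had 27.8, 10.6 and 9.04 CPM in the knockouts, against 30.7, 23.1 and 26.9 CPM in the controls. Vav1, a signal transducer of antigen receptors, had 22.1, 7.4 and 6.16 CPM in the knockouts, against 17.4, 16.7 and 20.6 CPM in the controls. For these 3 genes knockout replicates 2 and 3 were below every control. Inpp5d, the inositol phosphatase SHIP1, had 30.3, 11.9 and 9.76 CPM in the knockouts, against 21.7, 20.2 and 21.2 CPM in the controls. Ptpn6, the tyrosine phosphatase SHP-1, had 40.7, 21.5 and 25.6 CPM in the knockouts, against 35.5, 33.5 and 39.9 CPM in the controls. Both were above every control in knockout replicate 1 and below every control in knockout replicates 2 and 3.

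**Figure D3:**
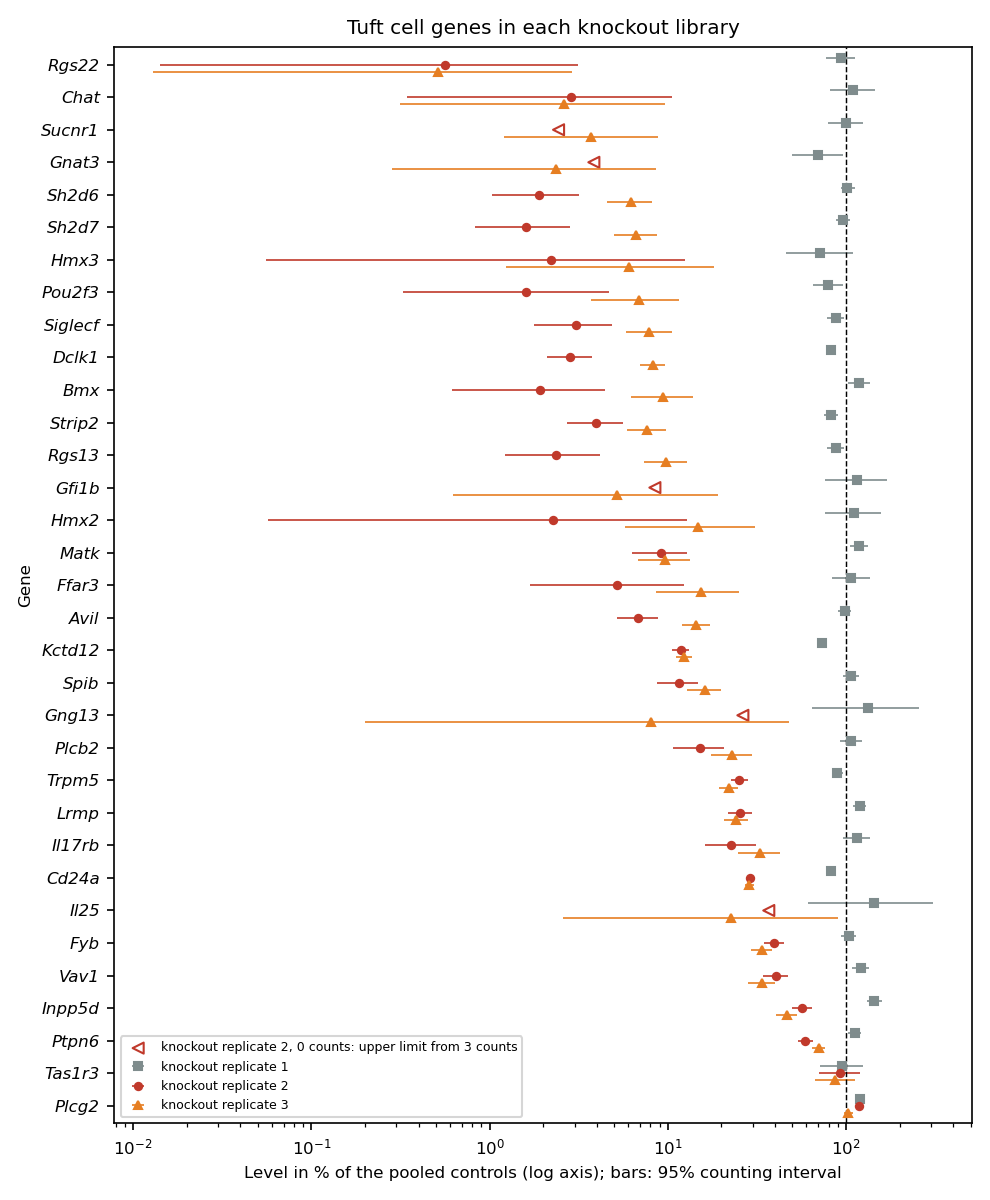
Level of each of the 33 genes in each knockout library as a percentage of the pooled controls, on a log axis, with 95% counting intervals and open triangles for upper limits where a library had 0 counts. Knockout replicate 1 runs between 69.9 and 144% of control over the 33 genes, while knockout replicates 2 and 3 spread between about control level (Plcg2, Tas1r3) and under 1% (Rgs22).

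Across the 33 genes, 20 were under 20% of the pooled controls in both knockout replicates 2 and 3, taking the floor of 3 counts where there was no read. The share of all genes under that limit was not counted, so this is a description only. On the log2 scale with a prior count of 2, 0 of the 32 measured genes were more than 1 below the control mean in knockout replicate 1, where 1.65% of all genes were. The count was 28 in knockout replicate 2, where 5.98% of all genes were, and 29 in knockout replicate 3, where 4.3% were. Together, 28 of the 32 measured genes were more than 1 below the control mean in both of these libraries and not in knockout replicate 1. Of all 15068 genes tested, 2.56% had this pattern. The 4 measured genes outside it were Tas1r3, Plcg2, Ptpn6 and Inpp5d. Of the 32, 22 were lower in knockout replicate 2 than in knockout replicate 3, which was not counted over all genes. Knockout replicate 1 lay within the control range for 17 genes, below it for 7 and above it for 8. The share of all genes at each of these positions was not counted, so nothing is read from these counts.

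The members were grouped by a label of leukocyte expression, given from general knowledge and not checked in these data. For the 11 genes labelled as also expressed in leukocytes, the median log2 difference from the control mean was 0.24, −1.78 and −1.56 in knockout replicates 1, 2 and 3. For the 21 other measured genes it was −0.02, −4.15 and −3.29 in the same libraries. These 21 are not free of leukocyte genes, since Gfi1b, used in blood cell development, is among them, and others may be too. Over all 15068 genes the medians were −0.012, −0.009 and −0.006. Spib, Bmx and Siglecf are leukocyte-expressed members at the low end of the first group, at −3.07, −5.24 and −4.88 in knockout replicate 2, and Plcg2 is at its high end, at 0.26. This division was not tested, because it uses the same values as the list.

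Leukocyte transcripts had higher values in the knockouts. All 6 genes of a pan-leukocyte list (Ptprc, Coro1a, Lcp1, Laptm5, Cd53 and Cd52) were detected, and they summed to 215, 193 and 139 CPM in knockout replicates 1, 2 and 3, against 137, 107 and 94.4 CPM in control replicates 1, 2 and 3. None of the 6 was called by edgeR, where 0.0597% of all genes were. Their part in the levels of Ptpn6, Inpp5d, Vav1, Fyb, Lrmp and Plcg2 was not tested. The 6 eosinophil markers summed to at most 1.16 CPM in a knockout library and 0.544 CPM in a control library. Among them Epx had no read in the knockouts and 1 in the controls, and Ear1 had none in any library. Ccr3 had 16, 1 and 2 counts in knockout replicates 1, 2 and 3, against 1, 0 and 0 counts in the controls, and Prg2 had 4, 2 and 2 counts, against 1, 0 and 3. Siglecf had 17 or more counts in every library. Of 11 enteric neuron and glia markers, which matter because neurons can express Chat and Dclk1, 5 had no read in the controls, and the list summed to at most 11.4 CPM in a knockout and 7.34 CPM in a control. Most of that sum was Ret, at 4.70, 9.53 and 7.84 CPM in the knockouts, against 5.10, 3.54 and 3.26 CPM in the controls. M cell markers, relevant to Spib, summed to 126, 145 and 175 CPM in the knockouts, against 115, 116 and 102 CPM in the controls. The largest part was Tnfrsf11a, at 62.8, 91.4 and 118 CPM in the knockouts, against 79.1, 79.1 and 65.9 CPM in the controls. Gp2 had 5, 11 and 103 counts in the knockouts, against 2, 12 and 2 in the controls.

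Levels of different genes were compared per kilobase of merged exons, in the controls, for the 32 genes whose identifiers matched GENCODE release 21 (Sh2d6 did not). Cd24a stood first, at 79.3 CPM per kilobase, followed by Kctd12 at 22.8, Rgs13 at 13.3, Ptpn6 at 13.0 and Plcg2 at 12.7. Avil stood at 11.2, Trpm5 at 9.01, Dclk1 at 4.91 and Pou2f3 at 2.64 CPM per kilobase. Il25 was last at 0.333, below Hmx2 at 0.592 and Gng13 at 0.643. The 5 transcription factors thus ranged between 0.592 for Hmx2 and 8.07 for Spib. Of the Gng13 exon bases, 51.6% overlap Chtf18 on the opposite strand, so its level per kilobase is uncertain.

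In the fit with genotype as the sole term, edgeR called 0 of the 32 measured genes at an adjusted p of 0.05 (quasi-likelihood F test, Benjamini-Hochberg over 15068 genes), where 0.0597% of all genes were called and 0.00664% were called lower. At an unadjusted p under 0.05 it placed 1 lower, Cd24a, where 7.09% of all genes were lower. DESeq2 also called 0 of the 32, where it placed 1.95% of all genes lower, and had 2 at an unadjusted p under 0.05, where 17.5% of all genes were. limma-voom called 0 as well, where 0.00664% of all genes were lower, and had 25 at an unadjusted p under 0.05, where 16.8% of all genes were. With the replicate number as a block, 0 of the 32 and 0 of all genes were called, and 13 of the 32 were at an unadjusted p under 0.05, where 16.6% of all genes were. The median log2 fold change over the 32 genes was −1.26, against 0.006 over all genes (−2.16 with the replicate block and −2.35 with limma-voom), and 31 were negative, against 49.3% of all genes. The groups did not overlap for 7 of the 32, all lower in the knockouts, where 11.7% of all genes were lower without overlap. Dclk1 had a log2 fold change of −1.70 (SE 1.03), Pou2f3 −1.80 (SE 1.03) and Trpm5 −1.14 (SE 0.52). Plcg2 was at 0.19 (SE 0.12). With the replicate block, Dclk1 was at −2.98 and Pou2f3 at −2.82.

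The outcome of that fit rested on knockout replicate 1. Without it, edgeR placed 30 of the 32 genes lower at an adjusted p under 0.05, where 7.44% of all 15470 genes then tested were lower, and the median log2 fold change was −3.44. Tas1r3 and Plcg2 were the 2 not called. Because the list was drawn from these libraries, nothing is read from these counts. With any other library left out, 0 of the 32 were called, where at most 0.0193% of all genes were lower, and the median ran between −1.38 and −0.78.

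Sex by Xist ran partly along this split, since both knockouts with low tuft cell transcripts were Xist-high. Within the Xist-high libraries, the mean level over the 33 genes was −3.37 and −2.69 in knockout replicates 2 and 3, against 0.10 in control replicate 3. Within the Xist-low libraries it was 0.03 in knockout replicate 1, against 0.07 and −0.17 in control replicates 1 and 2. The Xist-high control thus had the highest level of the 6 libraries. With 1 or 2 libraries on each side, sex and animal cannot be told apart within the knockouts. With sex by Xist as a covariate, 0 of the 32 genes were called, where 0.0199% of all genes were lower, and the median log2 fold change was −1.53.

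A further 30 genes known from tuft cells, outside the 33, showed the same split in part. Their mean level was −0.08, −1.85 and −1.59 in knockout replicates 1, 2 and 3, against −0.05, −0.03 and 0.08 in the controls. All 30 passed the filter, and edgeR called 0 of them, where 0.0597% of all genes were called. At an unadjusted p under 0.05 it had 6, where 16.4% of all genes were. DESeq2 called 1, lower, where 1.95% of all genes were lower. In the edgeR fit the median log2 fold change was −0.95, with 25 negative, against 49.3% of all genes. Without knockout replicate 1, edgeR called 20 of the 30, all lower, where 7.44% of all genes were lower. This list too was chosen with earlier results of these libraries known, so nothing is read from that count. The 2 most abundant of them differed little between knockout libraries. The calcium pump gene Atp2a3 had 219, 179 and 209 CPM in the knockouts, against 243, 230 and 261 CPM in the controls, and the keratin gene Krt18, shared by other epithelial cells, had 199, 152 and 160 CPM, against 162, 169 and 171 CPM.

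That list holds enzymes that make prostaglandins and leukotrienes, lipid mediators of tuft cells. Alox5, the leukotriene-forming lipoxygenase, had 13.1, 0.348 and 1.32 CPM in knockout replicates 1, 2 and 3, against 15.6, 15.3 and 18.8 CPM in the controls, and Ptgs1, cyclooxygenase 1, had 15.4, 0.870 and 2.24 CPM, against 14.4, 13.7 and 15.8 CPM. Both genes, named after their values were seen, put knockout replicates 2 and 3 far below every control, as Dclk1 and Sh2d6 did.

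Among 16 other genes of taste transduction, 4 passed the filter, with a median log2 fold change of −0.05. Of the 4, edgeR called 0, where 0.0597% of all genes were called. It had 0 at an unadjusted p under 0.05, where 16.4% of all genes were. DESeq2 called 0, where 3.6% of all genes were higher and 1.95% lower, and limma-voom called 0, where 0.00664% were lower. The 2 most abundant were Gnb1, a G protein beta subunit of most cells, at 815, 737 and 664 CPM in the knockouts, against 785, 881 and 861 CPM in the controls, and Itpr3, an inositol trisphosphate receptor, at 322, 351 and 371 CPM, against 313, 345 and 295 CPM. Pkd2l1, Calhm1 and Tas2r118 had no read in any library. Tas1r1 and Tas1r2, the partners of Tas1r3 in the umami and sweet receptors, had at most 3 counts in a library. Over the 4 measured genes, the log2 differences from the control mean ran between −0.53 (Itpr2) and 0.23 (Itpr3), both in knockout replicate 3. Gnb1 was below every control in knockout replicates 2 and 3. Gnat3, Gng13 and Plcb2 were lower by more in these 2 libraries, at −2.07 or below.

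Of 17 genes of the type 2 circuit around tuft cells, 11 were measured, at a median log2 fold change of 0.11. Of the 11, edgeR called 0, where 0.0597% of all genes were called. At an unadjusted p under 0.05 it had 5, where 16.4% of all genes were. DESeq2 called 1 higher and 1 lower, where 3.6% of all genes were higher and 1.95% lower. Without knockout replicate 1, edgeR called 3 higher and 3 lower, where 10% of all genes were higher and 7.44% lower. Nothing is read from these counts either, for the same reason as with the other tuft cell genes. The 2 most abundant were Clca1, a goblet cell mucus protein, at 3700, 2510 and 2730 CPM in knockout replicates 1, 2 and 3, against 4120, 4410 and 5340 CPM in the controls, and Il13ra1, a subunit of the interleukin-13 receptor, at 174, 323 and 340 CPM, against 224, 152 and 199 CPM. The cytokine genes Il4, Il5 and Il13 had at most 1 count in a library. Il1rl1 and Retnlb, named after their values were seen, were also low in knockout replicates 2 and 3 alone. Il1rl1, which encodes the interleukin-33 receptor, had 31.5, 0.261 and 1.32 CPM in the knockouts, against 7.56, 14.2 and 19.2 CPM in the controls. Retnlb, a goblet cell effector induced by interleukin-13, had 12.1, 0.131 and 0.0400 CPM, against 5.58, 3.58 and 14.4 CPM. Mast cells carry Il1rl1 as well, and the 9 mast cell markers summed to 32.9, 13.1 and 20.9 CPM in the knockouts, against 32.6, 37.9 and 40.1 CPM in the controls, with Tpsab1 at 0 in all 6 libraries. Most of that sum was Kit, which other cells also express, at 23.8, 11.1 and 14.8 CPM in the knockouts, against 29.4, 36.5 and 36.4 CPM in the controls. Mcpt1, the next most abundant, had 6.36, 1.09 and 3.68 CPM, against 1.93, 0.999 and 2.26 CPM. Their part in the Il1rl1 level was not tested.

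Other secretory lineages are given for comparison, on the same scale. The mean level of 20 enteroendocrine markers was 0.27, 0.65 and 0.21 in knockout replicates 1, 2 and 3, against 0.03, −0.03 and −0.01 in the controls. For 14 goblet cell markers it was −0.32, 0.10 and −0.11, against −0.03, 0.04 and −0.01. For 16 Paneth cell markers it was −1.12, −1.13 and −1.98, against −0.24, 0.25 and −0.01, so that the Paneth mean was below the controls in knockout replicate 1 as well. Paneth members differed, with 12 of the 15 measured at a negative log2 fold change and 3 at a positive one. Over all genes, 49.3% were negative. Ang4 had 459, 32.9 and 15.1 CPM in knockout replicates 1, 2 and 3, against 433, 959 and 702 CPM in the controls. Mmp7 had 9.95, 120 and 65.5 CPM, against 21.8, 56.7 and 23.5 CPM. Both were named after their values were seen. In the list means, the distance between knockout replicate 1 and the nearer of the other knockouts was largest for the tuft cell genes among these 4 lists. It was not tested, since those genes were chosen with that difference known.

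**Figure D4:**
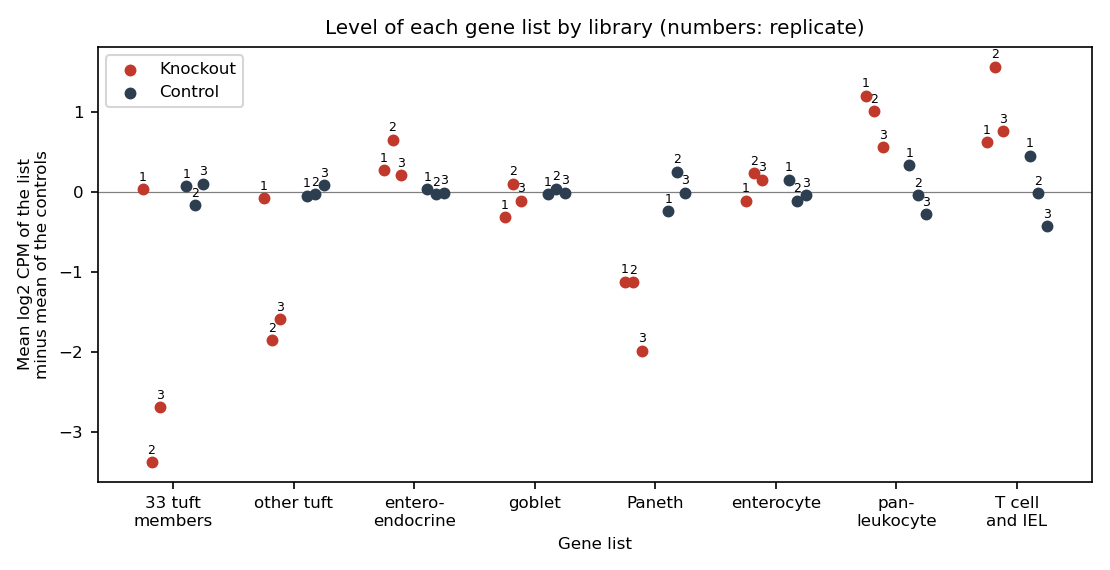
Mean log2 CPM of each gene list minus the mean of the controls, by library, with knockout points left of control points and the replicate number above each. For the tuft cell lists, knockout replicates 2 and 3 lie far below knockout replicate 1 and the controls. The mean of the Paneth markers is low in all 3 knockouts, with members that differ, and that of the pan-leukocyte markers is higher in all 3.

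Genes outside the list were ranked by how closely their 6-library profile followed the mean profile of the 32 measured genes, as the root-mean-square difference of log2 CPM, among 11686 genes with a mean of at least 2 CPM. The 10 closest had differences between 0.172 and 0.346. Of these, 3 (Ccnj, Ptgs1 and Nebl) were on the list of other tuft cell genes. Ccnj, a cyclin gene and the closest, had 21, 2.35 and 4.64 CPM in knockout replicates 1, 2 and 3, against 28, 21.5 and 28 CPM in the controls. The others were Gprc5c, an orphan receptor gene, Insrr, an insulin receptor-related kinase gene, Tspan6, a tetraspanin gene, Slc28a1, a nucleoside transporter gene, Pygl, a glycogen phosphorylase gene, and the predicted genes Gm15675 and Gm47405. Slc28a1 had 268, 30.1 and 53.9 CPM in the knockouts, against 263, 244 and 217 CPM in the controls, which makes it the most abundant of the 10. This ranking is a description over 6 libraries, and 2 of them carry most of the likeness.

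Because most members were low in the same 2 libraries, their promoters were searched for the octamer ATGCAAAT, the motif of POU factors such as Pou2f3, on both strands. RefSeq promoters (GRCm38.p6, 250 bases before to 50 after a gene start) were at hand for 28 of the 33 genes, as 32 promoters. The octamer occurred in 2 of the 32, at Sucnr1 and Kctd12, and in 1.74% of all 32851 promoters of that length. Allowing any base at one position (ATGCNAAT, which includes the octamer) gave the same 2 promoters, and 3.15% of all. The 250 bases upstream of both starts are shown, with the octamer in capitals, beside those of Trpm5 (lower in knockout replicates 2 and 3) and Plcg2 (at control level), which lack it in this window. All are written 5′ to 3′ on the strand of the gene.
Sucnr1, chr3:60081619-60081868, plus strand: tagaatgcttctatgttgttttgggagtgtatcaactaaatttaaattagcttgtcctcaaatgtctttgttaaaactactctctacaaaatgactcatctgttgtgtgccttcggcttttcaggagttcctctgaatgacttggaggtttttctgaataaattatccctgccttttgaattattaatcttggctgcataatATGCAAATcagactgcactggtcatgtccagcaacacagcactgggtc
Kctd12, chr14:102982638-102982887, minus strand: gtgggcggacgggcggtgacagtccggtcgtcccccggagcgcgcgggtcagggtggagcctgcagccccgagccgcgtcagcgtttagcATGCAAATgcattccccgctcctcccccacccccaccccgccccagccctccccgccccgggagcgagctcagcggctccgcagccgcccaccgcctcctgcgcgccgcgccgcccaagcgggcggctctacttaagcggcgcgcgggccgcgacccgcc
Trpm5, chr7:143094643-143094892, minus strand: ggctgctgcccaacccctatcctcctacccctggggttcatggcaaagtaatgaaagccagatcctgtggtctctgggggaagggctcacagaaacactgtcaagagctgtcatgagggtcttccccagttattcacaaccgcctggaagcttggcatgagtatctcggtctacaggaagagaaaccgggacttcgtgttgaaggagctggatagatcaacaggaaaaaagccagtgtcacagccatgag
Plcg2, chr8:117498025-117498274, plus strand: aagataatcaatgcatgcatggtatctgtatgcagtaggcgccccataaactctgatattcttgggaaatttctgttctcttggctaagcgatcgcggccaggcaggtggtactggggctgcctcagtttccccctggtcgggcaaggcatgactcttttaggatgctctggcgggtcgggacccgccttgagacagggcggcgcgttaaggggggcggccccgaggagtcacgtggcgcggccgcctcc
In Sucnr1 the first base of the octamer lies 48 bases before the start, and in Kctd12 160 bases before it. CpG dinucleotides were sparse in most member promoters, with a median observed to expected ratio of 0.283, against 0.384 over all promoters, and 7 of the 32 were above 0.6, against 35.8% of all. Plcg2, Strip2, Il17rb, Hmx3 and Kctd12 were among these 7. A match, or its absence, describes these letters in this window alone.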

How the data were processed

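RNA was sequenced from jejunal epithelial cells of 3 knockout and 3 control mice. The submitters' processing notes name STAR 2.5.0a, Trim Galore, FastQC, bcl2fastq 2.17 and build mm10. The deposited values are raw counts per gene, as the authors made them, without normalization. Which program counted reads, with which annotation and strand rule, is not given in the sources used here. Per the labels, both poly-A selection and a kit that removes ribosomal RNA were used, so RNA composition depends on steps the labels do not settle. Gene identifiers with version matched GENCODE mouse release 21 for 97.8% of 54446 genes, all at the same coordinates.

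Counts were tested with edgeR 4.0.16 (R 4.3.3): trimmed-mean scaling, its default expression filter with a minimum count of 10, genotype as the sole term, and the quasi-likelihood F test with Benjamini-Hochberg adjustment over 15068 genes at 0.05. Standard errors (SE) were taken from each fold change and its F statistic. CPM are counts per 1e+06 of the scaled library total, and log2 CPM used a prior count of 2. Percentages of the pooled controls carry 95% exact conditional binomial intervals, which, like the floor of 3 counts, cover counting error only. DESeq2 1.42.0, limma-voom 3.58.1 and other filters, scalings and left-out libraries were alternatives, and the edgeR fit was tested on simulated data.

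Replicates are separate mice by their identifiers in the titles. No pair of libraries was a duplicate, the lowest chi-square per gene within a group being 23.8. Replicate numbers are shared between groups, and no label says what they mark. Same-numbered libraries deviated together across genes, with correlations of 0.117, 0.119 and 0.149, against −0.143 to 0.00929 for other pairs. These are deviations from the mean of each group, so a positive value for one pair pushes the others down. The contrast between the pairs therefore does not settle what the numbers mark. They were treated as pairing the samples only in an alternative with a replicate block.

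The 33 genes and all gene lists were chosen with earlier results of these data known. Every member was described. From the lists of other tuft, taste and type 2 genes the 2 most abundant in the controls were named, with further genes marked as named after their values were seen. Likeness was ranked among genes outside the list with a mean of at least 2 CPM. Promoters came from RefSeq (GRCm38.p6).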

Additional observations from a re-analysis of the deposited data

How the results depend on the processing

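Over all genes, edgeR called 9 (8 higher, 1 lower). The count was 16 (11 higher, 5 lower) with library totals, which moved the median of all genes to −0.104 on the log2 scale, 284 (196 higher, 88 lower) without a filter, 836 (542 higher, 294 lower) with DESeq2, 5 with limma-voom and 0 with the replicate block. Leaving out 1 library gave 0 to 2700, the highest without knockout replicate 1. Leaving out the 3 libraries whose Xist goes against the series text was an alternative chosen after seeing the data. It left control replicate 1 as the only control, so no count of calls is given for it. In that fit all 32 measured tuft cell genes kept the sign of their log2 fold change. Of the tuft cell genes, 0 to 30 were called with 1 library left out, and their median log2 fold change ran between −3.44 and −0.78. That median was −2.16 with the replicate block, −2.35 with limma-voom and −1.26 in the fit as reported, and the cause of these shifts was not tested. The replicate block changed no call among the tuft cell genes. Depth limits Il25 and Gng13, which had at most 14 counts in a library.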

Other observations

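Marker lists of cells outside the epithelium differed among themselves over the libraries. T cell and intraepithelial lymphocyte markers summed to 335, 939 and 465 CPM in knockout replicates 1, 2 and 3, against 298, 195 and 159 CPM in control replicates 1, 2 and 3. B and plasma cell markers summed to 432, 293 and 465 CPM in the knockouts, against 112, 140 and 203 CPM in the controls. Smooth muscle and fibroblast markers summed to 74.2, 4.00 and 83.1 CPM in the knockouts, against 3.25, 4.45 and 16.6 CPM in the controls, so that knockout replicates 2 and 3, alike in their tuft cell transcripts, were far apart in stromal ones.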
